A study of Mus musculus with 7 samples.

Results

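Interferon-stimulated genes are genes whose transcription rises when a cell senses interferon, and they carry much of the cell's defence against viruses. The set described here is a list of 35 mouse genes of this kind, chosen by name for their known roles, out of 13047 distinct symbols in the deposited table. Earlier results of these data were known when the list was chosen, so comparisons with all genes describe the list and do not test it. Of the 35, 33 had a row, and for each the transcript with the most coding footprints was used. A count is listed only where a coding region held more than 0.01 footprints per nt, so an unlisted value is an upper bound and not a 0. The 28 genes listed in all 4 libraries were tested, 5 (Dhx58, Oas2, Oas3, Mx1 and Rsad2) were listed in some libraries only, and Oasl1 and Mx2 had no row.

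The libraries are ribosome profiling of tissue labelled primary mouse epidermis, 2 from wild-type (WT) tissue and 2 from tissue with a transgenic knockout (KO) of Pelo. Ribosome profiling counts the mRNA fragments that ribosomes protect, and Pelota is known as a factor that frees ribosomes stalled on mRNA. The labels give no strain, age, sex, Cre driver or deleted exon, and do not say whether replicates came from separate animals, so p-values cover only the spread between these libraries. Coding footprints numbered 4521561 to 4925876 in KO and 4221675 to 5282276 in WT libraries. RNA-seq was not used here, so a change in footprints cannot be split into more mRNA and more ribosomes per mRNA. Pelo itself had 24 and 21 coding footprints in the KO libraries and 101 and 61 in the WT libraries, and was 3.14-fold lower (log2 change −1.65, adjusted p = 0.000807).

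Interferons of type I (alpha, beta, kappa) signal through the receptor pair Ifnar1 and Ifnar2 and the kinases Jak1 and Tyk2, which activate a complex that holds Stat2 and Irf9. That complex binds the interferon-stimulated response element (ISRE) in promoters. Type II interferon (gamma), made mainly by T cells and natural killer cells, signals through Ifngr1, Ifngr2, Jak1 and Jak2 to the gamma-activated sequence (GAS) in promoters, and also induces Irf1, which binds ISRE-like elements. Skin keratinocytes respond to both, and the same genes are expressed at a low level without infection.

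Most of the tested genes carried fewer footprints in KO, with Usp18, Ifit3, Gbp2 and Igtp falling most, while Oas1a and Oas1g carried more. Of the 28 tested, 10 were lower and 2 higher in KO at an adjusted p of 0.05 (edgeR quasi-likelihood test, Benjamini-Hochberg adjustment over 10953 genes), against 19.1% of all genes lower and 19.9% higher. The 10 lower genes were Usp18, Ifit3, Gbp2, Igtp, Gbp3, Xaf1, Irf1, Parp14, Ddx58 and Tap1. The log2 change was below 0 in 23 of the 28 and its median was −0.44, against −0.02 over all genes tested. Values are CPM, counts scaled to a common library size with TMM factors. In these whole-tissue libraries, fewer cells of a type and less RNA per cell cannot be told apart.

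The KO libraries both lay below both WT libraries for 15 of the 28 genes, against 36.5% of all genes, and both lay above for 3, against 35.4% of all genes. The 6 of these 18 without a call were Trim25, Ifih1, Ifit2, Ifi35, Dtx3l and Irgm1. In the plot of CPM by library, WT replicate 1 is the top symbol for most genes, and WT replicate 2 often sits near or among the KO libraries. Summed over the 28 genes, KO replicates 1 and 2 held 2170 and 2450 CPM and WT replicates 1 and 2 held 3300 and 2380. Without B2m, which alone makes up more than the other 27 together, the sums were 829 and 956 against 1370 and 1040.

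**Figure D1:**
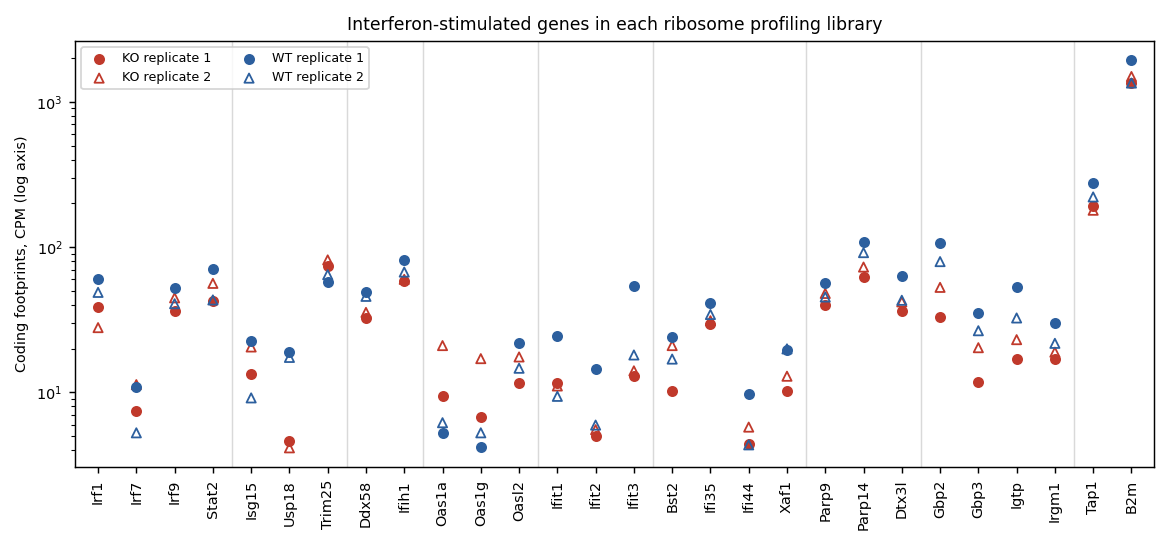
Coding footprints in CPM (log axis) of the 28 tested interferon-stimulated genes in each library, KO in red and WT in blue, circles for replicate 1 and triangles for replicate 2, with grey lines between roles. Usp18 is near 4 CPM in both KO libraries and above 17 in both WT libraries, while Oas1a and Oas1g are higher in both KO libraries.

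The 2 WT libraries differed from each other on these genes. WT replicate 1 was above WT replicate 2 for 24 of the 28, with a median log2 difference of 0.41, against 50.2% of all genes and a median of 0.00084. The difference was over 1 on the log2 scale for 6 of the 28 (Ifit3, Ifit1, Isg15, Ifit2, Ifi44 and Irf7), or 21.4%, against 0.73% of all genes. In KO, replicate 1 was below replicate 2 for 24 of the 28, with a median of −0.24 against 0.0052 over all genes. WT replicate 1 lay above both KO libraries for 24 genes, whereas WT replicate 2 lay above both for 15, between them for 6 and below both for 7. No label describes a difference between the replicates. Summed over each list, T cell markers held 556 CPM in WT replicate 1 and 533 in replicate 2, Langerhans and dendritic cell markers 7050 and 7640, and macrophage markers 2250 and 2820. In the same order, adipocyte markers held 1440 and 923, dermal fibroblast markers 77900 and 122000, and endothelial markers 365 and 391. Basal keratinocyte markers held 15400 and 17300, and suprabasal ones 31600 and 27500. Thy1 and Ptprc, which other cells express too, make up most of the T cell sum. Cd74 and the class II genes make up most of the Langerhans and dendritic cell sum. Outside them, the log2 difference between WT replicates 1 and 2 was 0.355 for Cd207 and 0.166 for Flt3. It was −0.106 for Cd86, −0.0293 for Itgax and −0.317 for Ciita. Single T cell genes were higher in WT replicate 1, Cd3e by 0.59, Cd3g by 0.80 and Xcl1 by 1.0 on the log2 scale, while Cd7 differed by 0.01 and Cd3d was lower by 1.18. The part of these cell types in the replicate difference was not tested.

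**Figure D2:**
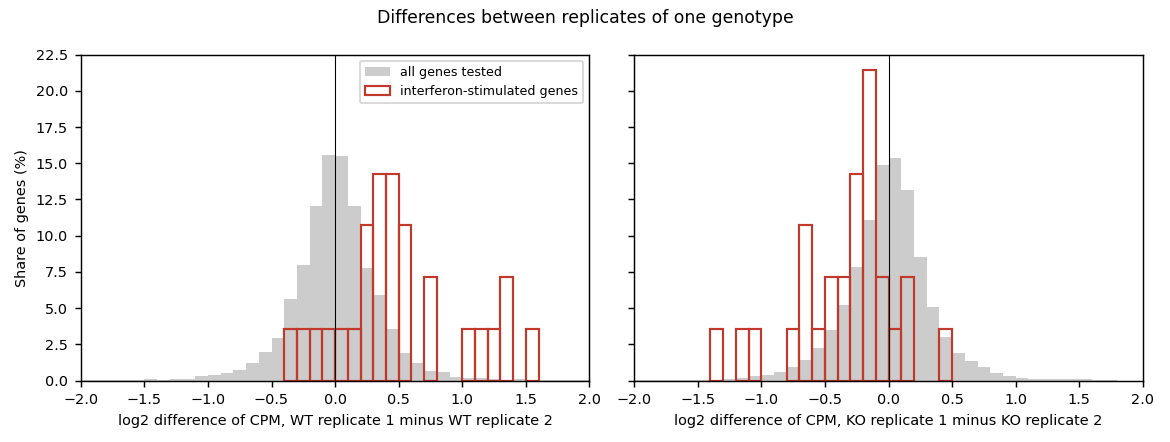
Share of genes (%) by the log2 difference in CPM between replicate 1 and replicate 2 of WT (left) and KO (right), for all 10953 genes tested (grey) and the 28 interferon-stimulated genes (red outline), in bins of 0.1. The interferon-stimulated genes lie to the right of the other genes in WT (median 0.41) and to the left in KO (median −0.24).

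Each call below is given with the library that ends it. Without WT replicate 1, 4 of the 28 genes were lower (Usp18, Gbp2, Igtp and Xaf1), none was higher and the median log2 change was −0.16; all 4 were among the 10. In that fit 14.5% of all genes were lower and 15.7% higher, so the share of these genes that was lower was near the background. Without WT replicate 2, 17 were lower and 1 was higher, with a median of −0.61, against 14.4% of all genes lower and 15.7% higher. Without KO replicate 2 no member was higher, 12 were lower and the median was −0.56, against 17.3% of all genes lower and 17.9% higher. Without KO replicate 1 there were 3 higher and 8 lower with a median of −0.34, against 15.5% lower and 17% higher. Usp18, Gbp2 and Igtp were lower in KO under all 10 alternatives run.

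**Figure D3:**
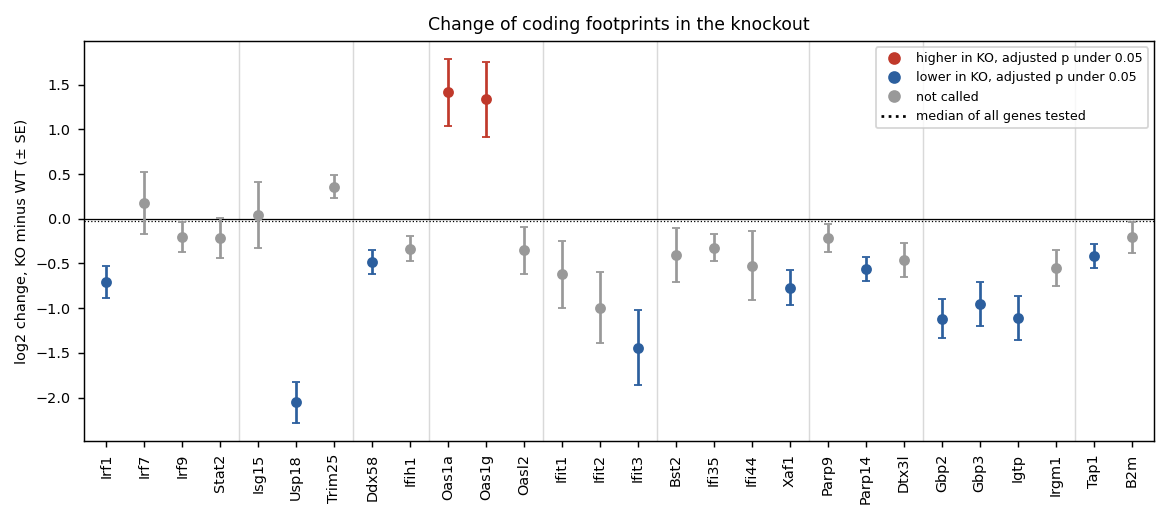
Log2 change of coding footprints, KO minus WT, with its SE, for the 28 tested genes in order of role; blue marks genes lower and red genes higher at an adjusted p of 0.05, grey genes were not called, and the dotted line is the median of all genes (−0.02). Usp18 is lowest at −2.05, and Oas1a and Oas1g are highest at 1.41 and 1.34.

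**Figure D4:**
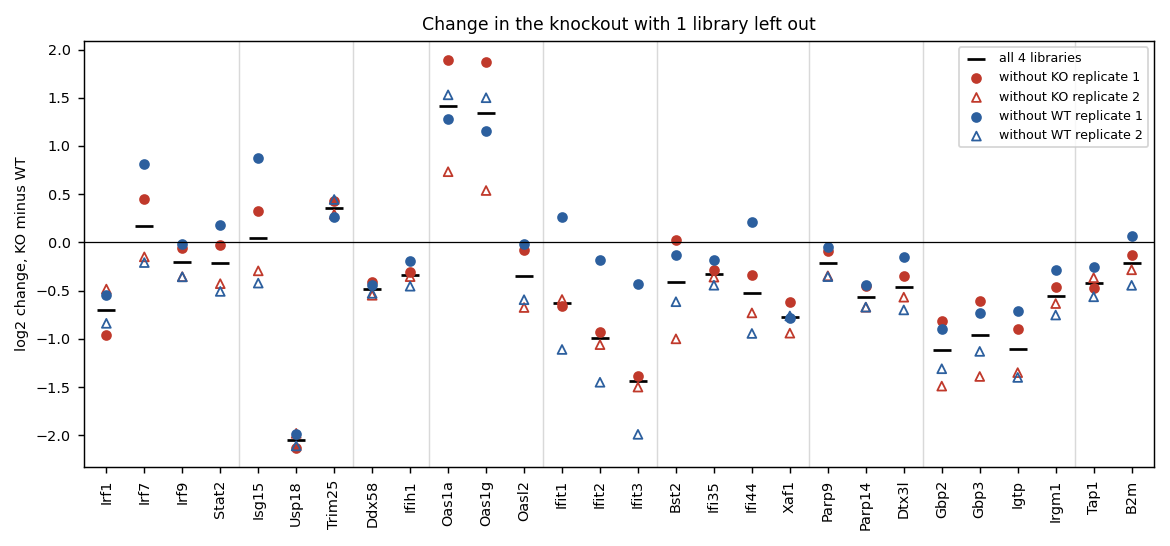
Log2 change, KO minus WT, of the same 28 genes with all 4 libraries (black bar) and with each library left out in turn (symbols). The values without WT replicate 1 (filled blue) lie closer to 0 than the bar for Ifit3 (−0.43) and cross 0 for Ifit1 (0.27), while those of Usp18 stay between −2.13 and −1.98.

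Short promoter stretches show which interferon elements accompany the genes that changed. RefSeq promoter windows (GRCm38, 250 bases before to 50 after each start) matched 28 of the 35 genes. The ISRE core GAAANNGAAA, searched on both strands and allowing overlaps, was present in 16 of these 28, against 3.99% of the 27025 genes with a window. A GAS core, TTCNNNGAA, was present in 6 of the 28 against 9.55%. The stretches below are parts of the windows of genes that were lower or higher in KO, with the match in capitals. A match is a description of the letters and not evidence of binding.
Oas1a (higher), chr5:120907523-120907552, minus strand: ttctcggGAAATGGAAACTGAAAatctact
Oas1g (higher), chr5:120887609-120887638, minus strand: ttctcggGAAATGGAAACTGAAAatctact
Gbp3 (lower), chr3:142559992-142560021, plus strand: gacacagTTTCAGTTTCTATTTCccagatc
Gbp2 (lower), chr3:142620594-142620623, plus strand: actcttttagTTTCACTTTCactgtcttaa
Igtp (lower), chr11:58199512-58199541, plus strand: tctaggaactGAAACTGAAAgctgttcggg
Ifit3 (lower), chr19:34583397-34583426, plus strand: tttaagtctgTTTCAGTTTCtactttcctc
Ddx58 (lower), chr4:40239804-40239833, minus strand: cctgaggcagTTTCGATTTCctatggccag
Irf1 (lower, GAS core), chr11:53769914-53769943, plus strand: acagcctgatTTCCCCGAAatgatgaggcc

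The stretches printed for Oas1a and Oas1g are identical in sequence. Each holds 2 overlapping ISRE cores, 20 bases before the start in Oas1a and 18 in Oas1g. Gbp3 also holds 2 overlapping cores, read on the other strand, 45 bases before its start. The core is thus present in both genes that were higher, in 5 that were lower, and in Isg15, Irgm1, Bst2, B2m, Stat2, Ifih1 and Ifit1, which were not called. The other genes with it, Oas3 and Rsad2, were not tested. GAS cores share a window with an ISRE core in Igtp (45 bases before the start), in Oas1a, which was higher (98 bases), and in Bst2, which was not called (136 bases). The other GAS cores are in Irf1, Ifi35 and Ifit2. Tap1 and Xaf1, both lower in KO, have neither core in the window searched, and Usp18 and Parp14 have no window in the table.

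Among the signal transducers, Irf1 fell, and Stat2, Irf9 and Irf7 did not pass the test. Irf1, a transcription factor induced by gamma interferon, held 38.9 and 27.9 CPM in KO replicates 1 and 2 against 60.0 and 48.8 in WT replicates 1 and 2. Both KO values are below both WT values, a 1.63-fold difference (log2 change −0.70, SE 0.181, adjusted p = 0.0131), which lost its call without WT replicate 1 (−0.55, adjusted p = 0.0820). Stat2, a subunit of the type I complex, held 42.4 and 56.3 CPM in KO against 70.3 and 43.3 in WT, and its partner Irf9, the DNA-binding subunit, 36.3 and 44.7 against 52.0 and 40.7. The genotypes overlap for both (log2 change −0.22, SE 0.223, and −0.20, SE 0.165). Irf7, which amplifies type I interferon production, held 7.44 and 11.3 against 10.8 and 5.26 CPM and also overlaps (0.17, SE 0.349).

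In the system of the ubiquitin-like modifier Isg15, the enzyme that removes it fell and Isg15 itself was not called. Usp18 encodes the protease that takes Isg15 off its targets and also dampens type I receptor signalling. It had 21 and 18 coding footprints in the KO libraries and 109 and 76 in the WT libraries, or 4.37 ± 0.315 against 18.2 ± 1.15 CPM (mean ± SD, n = 2). The KO libraries were far below both WT libraries, a 4.15-fold difference (log2 change −2.05, SE 0.231, adjusted p = 0.00015), and the value stayed between −2.13 and −1.98 when any library was left out. Isg15 itself held 13.3 and 20.5 CPM in KO against 22.7 and 9.16 in WT. The WT libraries lie at either end of that range, and the log2 change of 0.04 (SE 0.366) lay between −0.42 and 0.88 with single libraries omitted and was −0.13 with library totals in place of TMM. Trim25, a ubiquitin ligase that activates Ddx58, held 74.4 and 81.6 against 57.4 and 64.5 CPM. Both KO values were higher, but the adjusted p was 0.0534 (log2 change 0.36, SE 0.129). It passed without KO replicate 1 (0.43, adjusted p = 0.0492).

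Of the RNA helicases that sense viral RNA in the cytoplasm, Ddx58 fell, Ifih1 was not called and Dhx58 could not be tested. Ddx58, known as RIG-I, held 32.4 and 35.5 CPM in KO against 49.0 and 45.8 in WT, with little spread in either genotype. That is 1.40-fold lower (log2 change −0.48, SE 0.134, adjusted p = 0.0189). The call was lost without WT replicate 1 (−0.44, adjusted p = 0.0948) and without KO replicate 1 (−0.41, adjusted p = 0.0901). Ifih1, known as MDA5, held 58.0 and 59.9 against 80.9 and 67.3 CPM and missed the threshold (−0.33, SE 0.135, adjusted p = 0.0788), passing without WT replicate 2 (−0.45). Dhx58, known as LGP2, had 36 footprints in KO replicate 2 and 44 and 24 in WT, and was unlisted in KO replicate 1, where up to 19 can be hidden; its listed KO value of 8.30 CPM is above the 7.68 and 5.49 in WT.

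The oligoadenylate synthetases, which sense double-stranded RNA and make a short messenger from ATP, went in no single direction: Oas1a and Oas1g rose and Oasl2 was not called. Oas1a had 43 and 91 footprints in the KO libraries and 30 and 27 in the WT libraries, or 9.41 and 21.0 against 5.23 and 6.18 CPM. Oas1g had 31 and 74 against 24 and 23, or 6.78 and 17.1 against 4.19 and 5.26 CPM. KO replicate 2 is the highest library for both, more than 2-fold above KO replicate 1 (log2 differences of −1.16 and −1.33 between KO replicates 1 and 2). The log2 changes were 1.41 (SE 0.374, adjusted p = 0.0152) for Oas1a and 1.34 (SE 0.420, adjusted p = 0.0315) for Oas1g. Neither was called without KO replicate 2 (0.73, adjusted p = 0.105, and 0.54, adjusted p = 0.297) or without WT replicate 1 (1.28, adjusted p = 0.0715, and 1.16, adjusted p = 0.128). Oas1g also missed without WT replicate 2 (1.5, adjusted p = 0.0534).

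Oas1a and Oas1g are adjacent, closely related copies with coding regions of 1044 nt each. The counting of reads shared by such copies was not given in the sources used here, so their signals cannot be told apart. Of the other Oas1 copies listed in all libraries, Oas1c fell (27 and 19 footprints against 74 and 41, log2 change −1.12, adjusted p = 0.0116), and lost its call without WT replicate 1 (−0.87, adjusted p = 0.0745). Oas1f, named after its values were seen, had 290 and 129 footprints in the KO libraries against 529 and 351 in WT and fell by 0.89 on the log2 scale (adjusted p = 0.0287). Its value was −1.54 without KO replicate 1 and −0.44 without KO replicate 2 (adjusted p = 0.0510), and it also lost its call without WT replicate 1 (−0.79, adjusted p = 0.0933). Oas1e was not called (−0.59, adjusted p = 0.208). Oas2 and Oas3 were listed in KO replicate 2 alone, with 26 and 41 footprints, where the other libraries can hide up to 21 and 33. Oasl2, a relative that binds RNA, held 11.6 and 17.5 CPM in KO against 22 and 14.7 in WT, with overlapping genotypes (−0.35, SE 0.260).

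The IFIT proteins bind foreign RNA ends and block their translation. Ifit3 had 59 and 61 footprints in the KO libraries and 308 and 79 in the WT libraries, or 12.9 and 14.1 against 53.7 and 18.1 CPM. WT replicate 1 alone carries most of the difference: the log2 change of −1.44 (SE 0.421, adjusted p = 0.0231) became −0.43 (adjusted p = 0.224) without it and −1.99 without WT replicate 2. Ifit2 held 5.03 and 5.53 against 14.5 and 5.95 CPM and was not called (−0.99, SE 0.399, adjusted p = 0.0761), although it passed without WT replicate 2 (−1.45). Ifit1 held 11.6 and 11.1 against 24.6 and 9.38 CPM, so that WT replicate 2 was the lowest library. Its log2 change of −0.62 (SE 0.376) turned to 0.27 without WT replicate 1 and passed without WT replicate 2 (−1.11, adjusted p = 0.00546).

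Among the other antiviral effectors, Xaf1 fell and the rest were not called. Xaf1, a pro-apoptotic partner of the XIAP inhibitor, held 10.3 and 12.9 CPM in KO against 19.7 and 19.9 in WT, and it is the called gene whose WT libraries agreed most closely (1.71-fold lower, log2 change −0.77, SE 0.196, adjusted p = 0.0124). It lost its call without KO replicate 1 (−0.61, adjusted p = 0.0647), and stood at −0.79 without WT replicate 1. Bst2, tetherin, which holds budding virus at the cell surface, ranged from 10.3 and 21.0 in KO to 23.9 and 16.9 CPM in WT. Its change of −0.41 (SE 0.304) was −1.0 without KO replicate 2, which passed (adjusted p = 0.00569), and 0.03 without KO replicate 1. Ifi35 held 29.5 and 31.1 against 41.3 and 34.3 CPM, lower in KO without overlap but not called (−0.33, adjusted p = 0.116).

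Ifi44 held 4.38 and 5.76 against 9.77 and 4.35 CPM, with overlap (−0.53, SE 0.385); it turned to 0.21 without WT replicate 1 and passed without WT replicate 2 (−0.94, adjusted p = 0.0454). Rsad2, viperin, which makes a chain-terminating nucleotide, was listed with 14 footprints in KO replicate 1 and 44 in WT replicate 1, where the others can hide up to 10. Mx1, a dynamin-like GTPase that traps viral particles, was listed in WT replicate 1 alone, with 20 footprints and up to 14 possible elsewhere. No change is drawn from these near-limit counts.

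Parp14, Dtx3l and Parp9 lie next to each other on chromosome 16 and encode ADP-ribosyltransferases and a ubiquitin ligase. Parp14 held 62.6 and 72.8 CPM in KO against 108 and 91.6 in WT and fell 1.48-fold (log2 change −0.56, SE 0.139, adjusted p = 0.0113), with no call without WT replicate 1 (−0.44, adjusted p = 0.0680). Dtx3l held 36.1 and 42.0 against 63.5 and 43.0 CPM, where WT replicate 2 is just above the KO libraries. It missed the threshold (−0.46, SE 0.189, adjusted p = 0.0823), but passed without WT replicate 2 (−0.70) and without KO replicate 2 (−0.57). Parp9 held 40.0 and 48.0 against 56.3 and 45.3 CPM, with overlap (−0.21, SE 0.155).

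Of the 4 GTPases, a class that gamma interferon induces strongly, 3 fell and Irgm1 was not called. Gbp2, a guanylate-binding protein that coats intracellular microbes, had 151 and 229 footprints in the KO libraries and 610 and 347 in the WT libraries, or 42.9 ± 14.0 against 92.9 ± 19.1 CPM (mean ± SD, n = 2). It was 2.17-fold lower (log2 change −1.12, SE 0.218, adjusted p = 0.00346), and lay between −1.49 and −0.82 with single libraries omitted, called each time. Igtp, an immunity-related GTPase also known as Irgm3, held 16.9 and 23.1 CPM in KO against 52.9 and 32.5 in WT. Its fall was of the same size (−1.11, SE 0.245, adjusted p = 0.00646) and was called without each library in turn, at −0.71 without WT replicate 1.

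Gbp3, a second guanylate-binding protein, held 11.8 and 20.3 against 35.1 and 26.6 CPM (−0.95, SE 0.247, adjusted p = 0.0137), and lost its call without WT replicate 1 (−0.74, adjusted p = 0.0875). Irgm1, a regulator of the other GTPases and of autophagy, held 16.9 and 18.9 against 30.2 and 21.7 CPM, just short of a call (−0.55, SE 0.198, adjusted p = 0.0521). It passed without WT replicate 2 (−0.75) and without KO replicate 2 (−0.63). All 4 genes had both KO libraries below both WT libraries. These families hold close copies, and reads may have been shared between them.

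In MHC class I presentation, the peptide transporter subunit Tap1 fell and B2m, the light chain of every class I molecule, was not called. Tap1 had 880 and 778 footprints in the KO libraries and 1579 and 967 in the WT libraries, or 193 and 179 against 275 and 221 CPM. Both KO values are lower, by 1.34-fold (log2 change −0.42, SE 0.133, adjusted p = 0.0326). The call was lost without WT replicate 1 (−0.26, adjusted p = 0.187) and without KO replicate 2 (−0.37, adjusted p = 0.0954). B2m held 1345 and 1493 CPM in KO against 1936 and 1346 in WT, with overlap (−0.21, SE 0.173). Without WT replicate 1 its value was 0.07, and without WT replicate 2 it passed (−0.45, adjusted p = 0.0308).

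Levels of the 28 tested genes were compared per length, as CPM per kb of coding region. B2m was highest in both genotypes, at 4730 in KO and 5470 in WT, followed by Tap1 at 87.9 and 117. In WT the next were Irf1 (58.5), Gbp2 (54.3) and Ifi35 (47.2), and the lowest were Oas1g (4.53) and Oas1a (5.47). In KO, Usp18 (4.18), Ifi44 (4.19) and Ifit2 (3.90) were the lowest, and Trim25 (42.3) and Isg15 (39.7) came next after Tap1. These are mean levels over 2 libraries; neighbours in the order were not tested against each other.

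Few footprints of these genes lay outside the coding region. In the 28 tested genes, 5′ UTRs held 46 and 69 footprints in the KO libraries and 110 and 67 in the WT libraries, and 3′ UTRs held 10 and 13 against 38 and 21. As a share of their coding footprints, the 3′ UTR counts were 0.101% and 0.122% in KO and 0.201% and 0.202% in WT, where all genes tested together had 0.536% and 0.608% against 0.673% and 0.644%. The 5′ UTR shares were 0.463% and 0.65% against 0.581% and 0.643% for these genes, and 1.44% and 1.68% against 1.06% and 0.971% for all genes. No gene of the set had enough 3′ UTR counts to be tested. The ratio of 5′ UTR to coding footprints could be tested for 2 of them, and neither was called, against 1.17% of 1618 genes called in either direction. Irgm1 had 5 and 3 footprints in its 5′ UTR in KO against 13 and 11 in WT (log2 change of the ratio −1.57, SE 0.586, adjusted p = 0.194). Tap1 had 12 and 12 against 11 and 10 (0.08, SE 0.425, adjusted p = 0.955). Each region was scaled on its own, so these values are relative to the shift of all 5′ UTRs tested. With coding library totals instead, the log2 changes were −0.81 for Irgm1 and 0.80 for Tap1, again without a call.

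Other genes of the interferon pathway, in lists written from their known roles, were also more often lower than higher. These lists too were written with earlier results of these data known. Of 198 symbols in 9 lists, 133 were tested, 49 were lower and 7 higher, with a median log2 change of −0.39, against 19.1% of all genes lower and 19.9% higher. Without WT replicate 1, 21 were lower and 6 higher, with a median of −0.27, against 14.5% of all genes lower and 15.7% higher in that fit. No row was present for any of the 23 interferon ligand symbols, which include Ifng, Ifnb1 and the keratinocyte interferon Ifnk. Among 8 receptors and kinases, 5 were lower and 3 not called: the type I kinase Tyk2 (42 and 44 footprints in the KO libraries and 162 and 106 in the WT libraries, log2 change −1.45, adjusted p = 0.000387), the gamma pathway kinase Jak2 (−0.79), the gamma receptor chains Ifngr1 (−0.73) and Ifngr2 (−0.67), and the type I receptor chain Ifnar2 (−0.43). Tyk2, Jak2 and Ifngr1 kept their calls without each library in turn, whereas Ifngr2 (−0.75 to −0.58) and Ifnar2 (−0.48 to −0.37) lost theirs whichever library was left out.

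**Figure D5:**
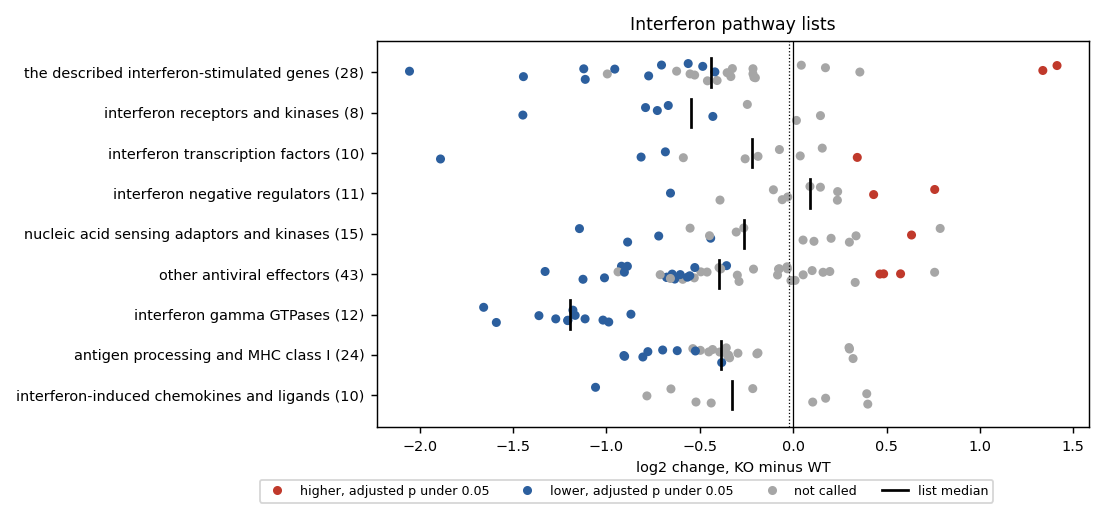
Log2 change, KO minus WT, of each tested gene of the interferon-stimulated set (top row) and of 8 other interferon pathway lists (number tested in brackets); black bars are list medians, blue and red points genes lower and higher at an adjusted p of 0.05, and the dotted line is the median of all genes (−0.02). All 12 interferon gamma GTPases are blue, with a median of −1.19.

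The gamma interferon GTPases outside the set fell as well. All 12 tested were lower in KO, against 19.1% of all genes, with log2 changes of −1.66 to −0.87 and a median of −1.19. Reads may have been shared between close copies here too, so these genes may not be independent of each other. The largest falls were in Gbp4 (31 and 37 footprints in the KO libraries and 159 and 88 in the WT libraries, −1.66, adjusted p = 0.000661), Gbp10 (−1.59), Gbp8 (−1.36) and Gbp9 (−1.27). WT replicate 1 was above WT replicate 2 in all 12, by a median of 0.91 on the log2 scale. Without it, all 12 stayed below 0 and the median was −0.65. The calls lost included those of Gbp10 (−0.84) and Gbp8 (−0.74).

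In antigen processing 8 of 24 were lower and none higher, with a median of −0.39, where 19.1% of all genes were lower. The immunoproteasome subunits Psmb10 (−0.90), Psmb9 (−0.80) and Psmb8 (−0.78) fell, as did the non-classical class I gene H2-M3 (−0.91). Psmb9 lost its call without WT replicate 1 (−0.37) and without KO replicate 1 (−0.55). Without WT replicate 1 there were 4 lower, a share near the 14.5% of all genes in that fit, and without KO replicate 1 there were 5. Among 43 other antiviral effectors, 15 were lower and 3 higher, with a median of −0.40; the largest changes were in the nuclear body protein Sp140 (−1.33), Oas1c, the Isg15-activating enzyme Uba7 (−1.01) and the antibody receptor Trim21 (−0.92). Without WT replicate 1, 4 of the 43 were lower, below the 14.5% of all genes, and Trim21 (−0.75) was not called; without KO replicate 1 there were 9. The 3 that rose were the coactivator Helz2 (0.58), the inflammasome protease Casp1 (0.48) and the membrane protein Ifitm1 (0.46), named after their values were seen. Helz2 was not called without WT replicate 2 (0.40), Casp1 was not called without KO replicate 2 (0.32) or WT replicate 2 (0.37), and Ifitm1 was called only without KO replicate 2 (0.57).

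Calls in the remaining lists are read against the 19.1% of all genes lower and 19.9% higher. Those among the negative regulators and chemokines were near or below these shares. The higher calls among the transcription factors and the sensing genes were below them. Of 10 transcription factors, the lymphoid and dendritic factor Irf4 (−1.89), Irf2 (−0.81) and the class I transactivator Nlrc5 (−0.68) fell and Stat3 rose (0.34). Stat3 lost its call whichever library was left out, and Nlrc5 lost its call without WT replicate 1 (−0.48) and without KO replicate 1 (−0.47). Of 15 sensing adaptors and kinases, Ikbke (−1.14), the nucleic acid sensor Zbp1 (−0.89), the ubiquitin ligase Trim56 (−0.72) and the DNA receptor Tlr9 (−0.44) fell, and the adaptor Myd88 rose (0.63). Tlr9 lost its call whichever library was left out (−0.47 to −0.41). Zbp1 (−0.43) and Myd88 (0.57) lost their calls without WT replicate 1, and Zbp1 also without KO replicate 1 (−0.82). Of 11 negative regulators, the nuclease Trex1 (0.76) and Samhd1 (0.43) rose and the phosphatase Ptpn6 (−0.66) fell. Samhd1 was not called without KO replicate 1 (0.41) or WT replicate 2 (0.39). Of 10 chemokines and surface ligands only Il18bp, an interleukin-18 inhibitor, was called (−1.06), and it kept the call only when WT replicate 2 was the library left out. The gamma-induced chemokine Cxcl9, named after its values were seen, had 18 and 17 footprints in the KO libraries and 46 and 9 in the WT libraries.

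Marker counts of several other cell types are read against the 19.1% of all genes lower and 19.9% higher. T cell markers held 381 and 391 CPM in KO against 556 and 533 in WT, with 5 of 11 lower and none higher. The largest falls were in Cd7 (−2.62) and Cd3e (−2.57). The 6 without a call were Xcl1 (−0.84), Cd3d (−0.75), Cd2 (−0.36), Il2rb (−0.24), Thy1 (−0.04) and Gzmb (0.71). For Gzmb both KO libraries lay above both WT libraries. Thy1 and Ptprc make up most of each sum. Ifng, Trac and Trdc of that list had no row. Langerhans and dendritic cell markers held 3840 and 4100 against 7050 and 7640, with 6 of 10 lower, led by Cd74 (−1.14) and Ciita (−1.09), and Epcam, which keratinocytes express too, higher. Several of these, Ciita and the class II genes among them, are themselves induced by gamma interferon. Cd74 and the class II genes make up most of each sum. The 3 without a call were Cd207 (−0.45), Cd86 (−0.58) and Itgax (−0.05). Both KO libraries lay below both WT libraries for Cd207 and Cd86, but not for Itgax. Ccr7 was listed in KO alone, with 14 and 22 footprints, where WT can hide up to 10. Cd209a had 57 in KO replicate 1 and 199 and 278 in WT, and was unlisted in KO replicate 2, where up to 6 can be hidden. Macrophage markers held 1870 and 1660 against 2250 and 2820, with 8 of 16 lower, Cd163 (−1.41) and Lyz1 (−0.99) most. The other 8 were not called. Of these, C1qa (0.04), C1qb (0.07), C1qc (−0.05), Cd68 (0.09) and Cd14 (0.09) hardly differed. Mrc1 (−0.43), Fcgr1 (−0.29) and Itgam (−0.23) were lower in value. Dermal fibroblast markers held 43500 and 47800 against 77900 and 122000, with 5 of 12 lower. The collagens Col1a1, Col1a2 and Col3a1 make up most of each sum. Of the 7 without a call, Pdgfra (−0.14), Pdgfrb (−0.02), Thy1 (−0.04) and Fbln1 (−0.02) hardly differed. Lum (−0.39) and Col5a1 (−0.30) were lower in value and Col6a1 (0.19) was higher. Adipocyte markers were lower in 6 of 7 (Adipoq −1.87, Cfd −1.47), at 587 and 389 against 1440 and 923, while of the endothelial markers 1 of 8 was lower, below the share of all genes (Cldn5 −0.75, not called without WT replicate 1 or KO replicate 1). With each library left out in turn, log2 changes ranged from −2.74 to −2.51 for Cd7 and from −2.82 to −2.24 for Cd3e. The ranges were −1.25 to −1.04 for Cd74, −2.1 to −0.948 for Cd163 and −1.23 to −0.728 for Lyz1. They were −1.83 to −1.01 for the fibroblast marker Col1a2 and −2.18 to −1.6 for Adipoq.

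Suprabasal keratinocyte markers were higher in 9 of 11 (Flg 3.86, Casp14 3.11), at 80600 and 70900 against 31600 and 27500 CPM. Basal markers were higher in 2 and lower in 3 of 10 (Krt14 1.84, Krt15 −1.72). The 3 neutrophil markers listed in all libraries were higher, at 84.7 and 47.3 against 8.2 and 12.8 CPM, led by S100a9 (3.11) and S100a8 (2.54), which stressed keratinocytes also make; Ly6g, Elane, Ngp, Ltf and Camp had no row. Of the neutrophil markers listed in part, Mpo had 37 and 62 footprints in WT and was unlisted in KO, where up to 20 can be hidden, Retnlg had 15 and 9 in WT with at most 2 in KO, and Csf3r had 29 in KO replicate 1 alone. No B cell marker was listed in all libraries. The part of these shifts in the changes of the interferon-stimulated genes was not tested.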

How the data were processed

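The deposited tables hold raw counts of footprints per transcript region, mapped by the authors to mm9 transcripts, per the file headers and the accompanying column descriptions. Tools named without a role in the submitters' processing notes are Bowtie2 2.2.6, TopHat2 2.0.10 and CASAVA 1.8. How reads matching several genes were treated was not given in the sources used here. The table described as short footprints is byte-identical to the full-length one and was not used, so the length class is unknown. Densities and a 3′ UTR score deposited beside the counts were not used; region sizes, in nt, are the authors' values.

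Coding counts of the 11019 transcripts listed in all 4 libraries, reaching 10 counts in 2 or more libraries (10953), entered the quasi-likelihood test of edgeR 4.0.16 (R 4.3.3; genotype as the sole term; TMM factors of 0.928 to 0.959 for KO, 1.03 to 1.09 for WT), with Benjamini-Hochberg adjustment over all genes and a threshold of 0.05. SE is the log2 change divided by the square root of F. The UTR ratio is the interaction of genotype and region with library as a factor and TMM scaling within each region. The tests were run on simulated counts with the same spread between replicates for every gene. That check does not cover genes with a wider spread, as many of this set have. All members, Pelo, up to 4 called genes with the largest change of each pathway list and up to 2 of each marker list were named. For members and pathway lists, every gene of a call count of 5 or fewer with all 4 libraries was named too. Further markers were named beside these. Members and lists were chosen with earlier results of these data known. No molecular identifiers are named in the labels, so counts may not be of independent molecules. Leave-one-out values of markers, Ifnar2, Tlr9, Oas1f, Helz2, Casp1 and Ifitm1 were added after seeing the data. Some single-gene results are not reported here.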

Additional observations from a re-analysis of the deposited data

How the results depend on the processing

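The replicate numbers are shared by the genotypes but no label ties them to an animal or day, and deviations of the same-numbered libraries correlated at −0.0057 across genes; with the replicate block 3 members were higher and 10 lower, against 2 and 10, so Trim25 gained a call (0.36, adjusted p = 0.0499) and no member lost one. Scaling to library totals moved the median of all genes from −0.02 to −0.19 and the split of all calls from 2184 higher and 2093 lower to 1523 and 2986. Members were then 1 higher and 14 lower, the other pathway genes 2 higher and 64 lower, and Isg15 stood at −0.13. DESeq2 1.42.0 called 1492 genes higher and 1177 lower, 2 members higher and 6 lower, and 1 pathway gene higher and 31 lower; Ddx58, Ifit3, Tap1 and Xaf1 lost their calls. With unlisted counts at 0, no member was higher, 7 of 30 tested were lower, and 28 pathway genes were lower. The median log2 change of the members was then −0.47, against −0.05 over all genes. Shares of all genes called in that fit and with the replicate block are not given here. With RLE scaling Trim25 also passed (0.37), and without a count minimum no member's call changed.

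Leaving out each library in turn gave 0 to 3 members higher and 4 to 17 lower, 3 to 7 pathway genes higher and 21 to 56 lower, 5 to 19 5′ UTR ratios higher and 8 to 35 lower, and 0 to 16 3′ UTR ratios higher and 0 to 18 lower, against 8, 11, 16 and 8 with all libraries. Values that changed sign were those of Irf7 (−0.21 to 0.82), Stat2 (−0.51 to 0.18), Isg15 (−0.42 to 0.88), Ifit1 (−1.11 to 0.27), Bst2 (−1.0 to 0.0262), Ifi44 (−0.94 to 0.21), B2m (−0.45 to 0.0712) and the 5′ UTR ratio of Tap1 (−0.30 to 0.34), none of them called with all libraries. With coding library totals, 480 5′ UTR ratios were higher and no 3′ UTR ratio was called in either direction; with a minimum of 5 counts, 30 3′ UTR ratios were higher and 15 lower. The cause of these shifts was not tested. Depth limits the low genes: listed transcripts had median counts of 90 to 112, which leaves Oas2, Oas3, Mx1, Rsad2 and Dhx58 near the listing limit.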
